A study of Mus musculus with 4 samples.

Results

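The genes described here are 10 receptors, enzymes and secreted proteins by which tissue-resident macrophages are often recognised: Lyve1, Folr2, Cbr2, F13a1, Mrc1, Fcna, Cd163, Timd4, Gpr34 and Stab1. They are 10 of the 32285 genes listed in 4 single-cell RNA libraries from mouse digits. The genes were chosen from their levels in these same libraries, so the levels below are a description and carry no test. All animals were wild-type FVB/NJ mice, 8 weeks old, labelled as pools of males and females. One library came from unamputated, homeostatic digit tissue at the level of the second phalanx (P2). The others came from fibrosing tissue after amputation through the same phalanx, a level that does not regenerate, collected at 12, 17 and 28 days post-amputation (dpa). Trypsin followed by collagenase I freed the cells, erythrocytes were removed by lysis, and cells that excluded propidium iodide were sorted as live, so what was measured is the cells that survived dissociation.

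Resident macrophages sit in a tissue for long periods, take up dying cells, old proteins and iron, and are replenished by their own division or by monocytes from blood. In skin, fascia and around vessels, macrophages rich in Lyve1, Folr2, Cd163 and Timd4 are described as a perivascular, slowly replaced population that is low in the major histocompatibility complex class II (MHC II) proteins which present antigen to T cells. Monocyte-derived macrophages of a wound are, in textbook accounts, richer in Ccr2 and MHC II. Several of the 10 genes are also used by other cells: Lyve1 and Stab1 are well-known genes of lymphatic and sinusoidal endothelium.

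All 10 are protein-coding genes (GENCODE M21, GRCm38). Lyve1 lies at chr7:110850607-110863239, Folr2 at chr7:101839988-101857194, Cbr2 at chr11:120729489-120732114, F13a1 at chr13:36867178-37050244 and Stab1 at chr14:31139013-31168641. Mrc1 lies at chr2:14229392-14332057, Fcna at chr2:25624666-25628030, Cd163 at chr6:124304656-124330527, Timd4 at chr11:46810800-46844332 and Gpr34 at chrX:13632089-13640858.

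Each group was 1 library, so no difference below could be tested against the spread between animals, and no p-value is given. The libraries held 8813 to 16045 cell barcodes and 92313847 to 197140774 unique molecular identifiers (UMIs, 1 per captured transcript). After filtering, 10394, 6514, 7918 and 10125 cells were kept in the unamputated, 12, 17 and 28 dpa libraries, with medians of 11630, 9545, 8511 and 6654 UMIs. Pairs of libraries shared 19 to 87 barcode sequences, at most 0.570% of the smaller library. Although the labels name pools of both sexes, 54.3% of the cells of the 12 dpa library had the UMI pattern of female cells and 0 that of male cells, and in the other 3 libraries 47.1% to 77.8% of cells had the male pattern and at most 0.00962% the female one. Any difference between 12 dpa and the rest therefore cannot be told apart from sex. Levels are given as CPM, the UMIs of a gene in every 1000000 UMIs of the same cells, with exact 95% Poisson intervals where printed. These intervals, and those of shares, cover counting error only.

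Macrophage-like cells were 2 of 27 clusters, and all 12 macrophage markers, among them C1qa, Csf1r and Adgre1, were detected in them in every library. The class held 1257 unamputated cells, 632 cells at 12 dpa, 981 at 17 dpa and 1442 at 28 dpa, or 9.70% to 14.2% of each library. The 10 genes had been left out of the clustering. The makeup of the class differed between libraries: cluster 3, led by Ms4a7, Fcgr1 and Apoe, held 90.6%, 95.4%, 41.8% and 9.43% of it in the unamputated, 12, 17 and 28 dpa libraries, and cluster 5, led by Vsig4, Ccl24 and Pf4, held the rest. Another cluster, cluster 4, also expressed macrophage markers but was led by Mmp12 and by the osteoclast genes Acp5 and Atp6v0d2. It held 648, 554, 439 and 573 cells in the 4 libraries, stayed unnamed and is given apart. The unnamed cluster 25, led by haemoglobin and cell cycle genes, held 21, 24, 52 and 24 cells and was left out of the class. With the 4 libraries pooled it held at most 3.12% of the UMIs of any of the 10 genes. In the 17 dpa library alone it held 6.62% of the Cbr2, 5.28% of the Folr2 and 4.76% of the Lyve1 UMIs of kept cells.

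All 10 genes were lower in the macrophage-like cells of the 12 dpa library than in the unamputated one, and all 10 were higher at 17 and at 28 dpa. At 28 dpa 8 of the 10 were at least 2-fold higher and 0 at least 2-fold lower. Of the 9569 genes of at least 5 CPM in these cells, 4.05% were 2-fold higher and 6.92% 2-fold lower. At 17 dpa 7 of the 10 were 2-fold higher and 0 lower, where 2.11% of all genes were higher and 1.91% lower. At 12 dpa 0 were 2-fold higher and 4 (Lyve1, F13a1, Cd163 and Timd4) were 2-fold lower, where 0.732% of all genes were higher and 2.69% lower. Because the genes were picked with these values known, nothing is read from the shares. In order of time, the 10 genes had median log2 ratios of -0.60, 1.63 and 2.13. The median over all genes was -0.21, 0.0077 and -0.053, so the 12 dpa values of the 10 stand beside a general shift of -0.21. The 3 comparisons share the unamputated library, so a low or high value there moves all of them.

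**Figure D1:**
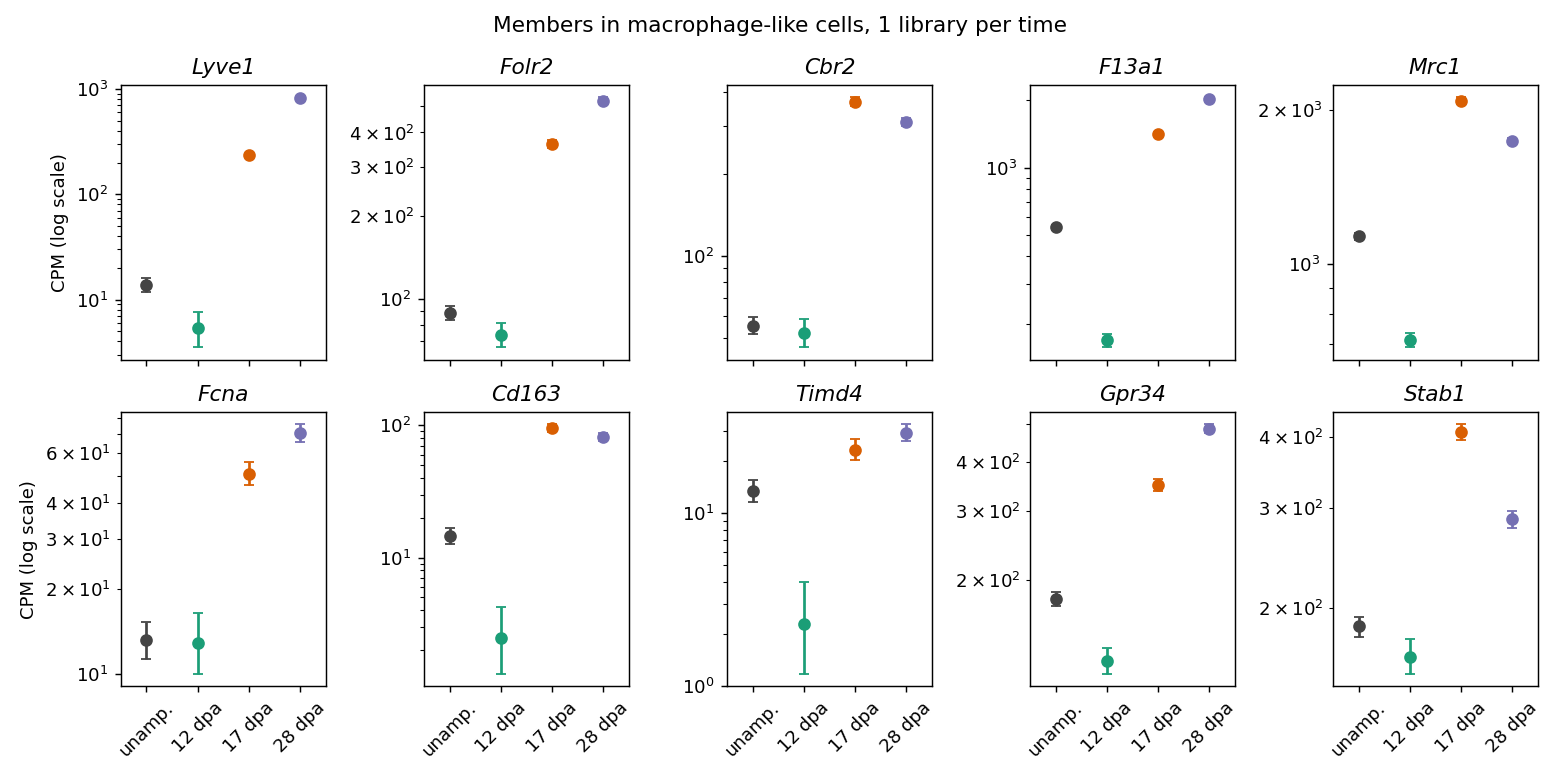
Level of each of the 10 genes (CPM, log axis) in macrophage-like cells of the unamputated, 12, 17 and 28 dpa libraries, 1 point per library, with exact 95% Poisson intervals as bars. Lyve1 spans the widest range, from 5.33 CPM at 12 dpa to 815 CPM at 28 dpa, and every gene has its lowest point at 12 dpa.

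Among the receptors, Lyve1, which binds hyaluronan, showed the widest range. In macrophage-like cells it stood at 13.8 CPM (11.8 to 15.9) in the unamputated library, 5.33 CPM (3.54 to 7.70) at 12 dpa, 234 CPM (224 to 244) at 17 dpa and 815 CPM (798 to 832) at 28 dpa. It was 17.0-fold higher at 17 dpa (14.6 to 19.9) and 59.2-fold higher at 28 dpa (51.2 to 69.0) than in the unamputated library. After each cell was thinned to 2000 UMIs, Lyve1 was found in 0.718% of unamputated, 0.481% of 12 dpa, 126 of the 967 17 dpa and 47.9% of 28 dpa macrophage-like cells. The libraries fall into a low pair, unamputated and 12 dpa, and a high pair in which 28 dpa stood far above 17 dpa. Keratinocyte-like cells, which should lack the gene, gave Lyve1 UMIs in 0.206%, 0.165%, 0.148% and 0.804% of thinned cells in the same order, at 0.569 CPM in the unamputated library. Median depth was 9164 to 17458 UMIs in keratinocyte-like and 7110 to 9868 UMIs in macrophage-like cells. The share in 12 dpa macrophage-like cells is that of 3 cells among 624, close to this background. All 28 Lyve1 UMIs of the 12 dpa class lay in 5 cells, and 122 of the 183 unamputated ones did. Without the 5 highest cells of each library Lyve1 stood at 4.61, 0, 195 and 782 CPM, or 42.3-fold higher at 17 dpa and 169-fold higher at 28 dpa, so the size of its folds rests on a few unamputated cells.

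Folr2, a folate receptor, stood at 88.6, 73.8, 363 and 522 CPM in the unamputated, 12, 17 and 28 dpa macrophage-like cells. Its log2 ratios were -0.26, 2.02 and 2.55, a 5.89-fold difference (5.53 to 6.28) at 28 dpa. Mrc1, the mannose receptor CD206, stood at 1132, 712, 2084 and 1737 CPM in the same order. Mrc1 differed less, by log2 ratios of -0.67, 0.88 and 0.62, and, unlike Lyve1 and Folr2, its highest level was at 17 dpa. Stab1, a scavenger receptor, followed the order of Mrc1, with 186, 164, 409 and 287 CPM and log2 ratios of -0.18, 1.14 and 0.63. Scaling by the median ratio over genes of at least 20 CPM took the 12 dpa ratio of Stab1 to 0.054.

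Cd163, the receptor for haemoglobin bound to haptoglobin, was scarce. It stood at 14.6 CPM (12.6 to 16.8) in unamputated, 2.47 CPM (1.32 to 4.23) in 12 dpa, 95.3 CPM (89.0 to 102) in 17 dpa and 81.9 CPM (76.6 to 87.5) in 28 dpa macrophage-like cells. The 12 dpa value rests on 13 UMIs in 5 cells, and 105 of the 194 unamputated UMIs lay in 5 of 1257 cells. Without the 5 highest cells of each library Cd163 stood at 6.73, 0, 76.7 and 69.2 CPM. In all cells the 17 and 28 dpa intervals do not overlap, with 17 dpa the higher. Gpr34, a receptor for lysophosphatidylserine encoded on chromosome X, stood at 179, 124, 349 and 487 CPM in the usual order, with log2 ratios of -0.52, 0.96 and 1.44. In cells with the male UMI pattern alone, the ratios of Gpr34 were 0.99 at 17 dpa and 1.47 at 28 dpa. Timd4 (TIM4), which binds phosphatidylserine on dying cells, stood at 13.5, 2.28, 23.3 and 29.3 CPM, with log2 ratios of -2.14, 0.75 and 1.07. The 12 dpa value of Timd4 rests on 12 UMIs. Of the 179 unamputated Timd4 UMIs, 105 lay in 1 cell, and without the 5 highest cells of each library its levels were 3.86, 1.34, 17.8 and 27.8 CPM. Timd4 UMIs were found in 3.26%, 1.90%, 10.7% and 16.8% of unthinned cells. Its direction at 17 and 28 dpa differed between the sets of cells counted, as given below for cluster 3 and for cells pooled with dendritic-like ones.

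Of the enzymes and secreted proteins, Cbr2, a carbonyl reductase, stood at 55.5, 52.3, 369 and 309.8 CPM. Its log2 ratios were -0.083, 2.71 and 2.46, the first within counting error of 0 (interval -0.29 to 0.12). F13a1, the catalytic subunit of clotting factor XIII that crosslinks fibrin, stood at 540.4 CPM in unamputated, 168 CPM in 12 dpa, 1414 CPM in 17 dpa and 2036 CPM in 28 dpa cells, with log2 ratios of -1.68, 1.39 and 1.91. Fcna, the lectin ficolin A, was scarce, at 13.2, 12.9, 50.8 and 70.7 CPM. Its log2 ratio at 12 dpa was -0.022, within counting error of 0 (interval -0.45 to 0.39), and 1.87 and 2.34 at the later times. For all 3, the unamputated and 12 dpa libraries stood below 17 and 28 dpa, but only F13a1 separated unamputated from 12 dpa by more than its counting interval.

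Promoter windows of 300 bases, from 250 before to 50 after each RefSeq transcription start (GRCm38.p6), were at hand for 8 of the 10 genes, 10 windows in all; Lyve1 and Gpr34 had none in the table. Windows were searched on both strands for the letters of motifs named after factors of the macrophage lineage: the MAF half-site TGCTGAC, PU.1 GAGGAAGT, C/EBP TTGCNNAA, the glucocorticoid receptor element and the E-box CACGTG. The 4 windows with a match are shown because they hold one, with the match in capitals; on the minus strand TGCTGAC reads GTCAGCA. The Cbr2 window is chr11:120731972-120732271, minus strand, the Fcna window chr2:25627925-25628224, minus strand, the Timd4 window chr11:46810549-46810848, plus strand, and the second F13a1 window chr13:37049164-37049463, minus strand, each printed 5′ to 3′ in the direction of its gene.
Cbr2: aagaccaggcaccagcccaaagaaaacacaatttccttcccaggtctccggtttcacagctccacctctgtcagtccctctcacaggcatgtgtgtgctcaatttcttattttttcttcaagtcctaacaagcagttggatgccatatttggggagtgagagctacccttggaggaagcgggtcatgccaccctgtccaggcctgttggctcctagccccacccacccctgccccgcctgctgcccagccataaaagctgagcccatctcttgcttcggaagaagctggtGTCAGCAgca
Fcna: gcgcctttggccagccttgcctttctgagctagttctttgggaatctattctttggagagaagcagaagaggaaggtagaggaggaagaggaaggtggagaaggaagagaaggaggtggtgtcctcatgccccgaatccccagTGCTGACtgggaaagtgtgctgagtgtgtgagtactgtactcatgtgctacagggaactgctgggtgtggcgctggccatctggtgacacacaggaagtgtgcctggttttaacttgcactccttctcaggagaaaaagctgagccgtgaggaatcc
Timd4: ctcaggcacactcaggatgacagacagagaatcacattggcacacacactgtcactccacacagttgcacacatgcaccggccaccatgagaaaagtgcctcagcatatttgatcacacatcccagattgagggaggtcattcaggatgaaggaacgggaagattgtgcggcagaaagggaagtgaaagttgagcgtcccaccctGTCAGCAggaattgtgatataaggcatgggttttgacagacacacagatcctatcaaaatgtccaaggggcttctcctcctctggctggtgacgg
F13a1: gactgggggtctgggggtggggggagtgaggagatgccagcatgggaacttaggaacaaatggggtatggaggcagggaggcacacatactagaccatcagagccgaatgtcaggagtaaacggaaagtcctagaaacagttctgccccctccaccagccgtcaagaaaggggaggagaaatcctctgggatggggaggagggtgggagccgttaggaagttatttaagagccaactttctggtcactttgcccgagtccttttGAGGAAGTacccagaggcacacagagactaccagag
The MAF half-site lay at 41 from the start in Cbr2, at -107 in Fcna and at -45 in Timd4, and 4.67% of 32851 mouse promoter windows of this length hold it. The PU.1 letters lay at 15 in F13a1, and 3.20% of windows hold them. The C/EBP letters (10.8% of windows), the glucocorticoid receptor element (0.475%) and the E-box (7.15%) had no match in the 10 windows. A match is a description of letters and not evidence of binding.

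How far these differences lay within the clusters of the class was read next. By the finer clustering described after these, cluster 3 was itself a mixture: its unamputated cells were 341 of the macrophage-like cluster 2, 332 of the macrophage-like cluster 26, 220 of the unnamed cluster 18, and most of the others were of the monocyte-like cluster 35. In cluster 3, 0 of the 10 genes were 2-fold higher at 12 dpa and 2 (F13a1 and Timd4) were 2-fold lower, where 2.8% of 9557 genes were lower. At 17 dpa 2 (Lyve1 and Cbr2) were higher and 1 (Timd4) was lower in cluster 3, where 1.04% and 0.575% of genes were. At 28 dpa 2, again Lyve1 and Cbr2, were higher in cluster 3, where 2.68% of genes were. The ratio of Cbr2 there was 0.47 without the 5 highest cells of each library, and no Lyve1 UMI was then left. Of the 146 unamputated Timd4 UMIs in cluster 3, 105 lay in 1 cell. Without that cell the log2 ratios of Timd4 there were -0.39, -0.16 and 0.97 at 12, 17 and 28 dpa, none past 2-fold. Lyve1 was under 5 CPM on average in cluster 3, with 2, 3, 7 and 11 UMIs in the 4 libraries. Its log2 ratio at 28 dpa there has a counting interval of 4.20 to 9.61 without the pseudocount. In cluster 5, 1 gene, Lyve1, was 2-fold higher at 17 dpa and at 28 dpa, where 2.26% and 3.03% of 9474 genes were. Without the 5 highest cells of each library, F13a1, Fcna, Cd163 and Timd4 also passed 2-fold there at both times, and Cbr2 at 17 dpa. The share of all genes was not counted in that way. Cluster 5 had too few cells at 12 dpa (29) to be read. The median log2 ratio of the 10 genes at 28 dpa was 0.20 within cluster 3 and 0.26 within cluster 5, against 2.13 over the class, and a finer cluster gave other values. Both smaller medians rest in part on a few cells. Without the 5 highest cells of each library, all 10 ratios at 28 dpa were higher in cluster 5, and all but that of Timd4 were lower in cluster 3.

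**Figure D2:**
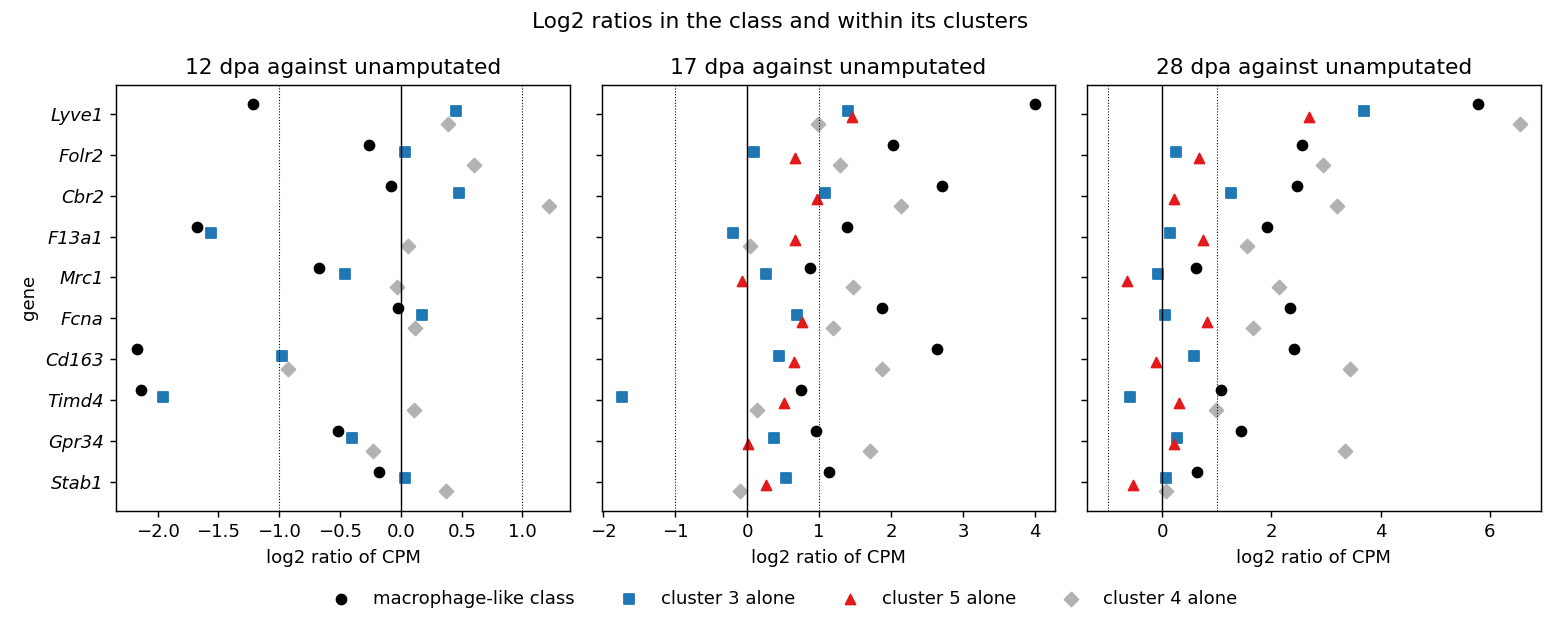
Log2 ratio of CPM to the unamputated library for each gene at 12, 17 and 28 dpa, over the macrophage-like class (circles) and within cluster 3 (squares), cluster 5 (triangles) and the unnamed cluster 4 (diamonds). Dotted lines mark a 2-fold difference. At 17 and 28 dpa most squares and triangles lie nearer to 0 than the circles, and Lyve1 is the only gene with triangles past 2-fold.

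Cluster 5 was the high state of the group in every library that could be read. In unamputated cells Lyve1 stood at 136 CPM in cluster 5 and 0.167 CPM (2 UMIs) in cluster 3, F13a1 at 1288 and 457 CPM, and Mrc1 at 2809.6 and 945 CPM. At 28 dpa Lyve1 stood at 877 CPM in cluster 5 and 14.1 CPM (11 UMIs) in cluster 3. Lyve1 therefore differed within cluster 5 as well, by log2 ratios of 1.46 (1.25 to 1.70) at 17 dpa and 2.68 (2.47 to 2.91) at 28 dpa. Mrc1 went the other way within cluster 5, at 2809.6 CPM unamputated, 2668 CPM at 17 dpa and 1802 CPM at 28 dpa, a log2 ratio of -0.64 (-0.69 to -0.59). Stab1 was also lower at 28 dpa, with 429.8 CPM unamputated, 519 CPM at 17 dpa and 296 CPM at 28 dpa, a log2 ratio of -0.53. Cd163 stood at 94.8 CPM unamputated, 149 CPM at 17 dpa and 87.6 CPM at 28 dpa, the last within counting error of the first (log2 interval -0.39 to 0.17). The unamputated values rest on 118 cells. The ratios were also taken without the 5 highest cells of each library, a larger share of the unamputated cells than of the later ones. At 17 and 28 dpa the log2 ratios were then 2.72 and 4.13 for Lyve1, 2.10 and 1.41 for Cd163, and 1.38 and 1.49 for Timd4. They were 1.07 and 1.19 for F13a1, 1.13 and 1.30 for Fcna, and 1.14 and 0.40 for Cbr2, while Folr2, Mrc1, Gpr34 and Stab1 did not pass 2-fold. The direction of Cd163 within cluster 5 at 28 dpa thus turns on a few unamputated cells. The higher class level of Mrc1 and Stab1 at 28 dpa was not seen within cluster 5, whose share of the class was 9.39% in the unamputated and 90.6% in the 28 dpa library.

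A finer clustering split these cells further. Cluster 10 of that clustering, led by Vsig4, Ltc4s and Ccl24, had 12 unamputated, 7 12 dpa, 149 17 dpa and 885 28 dpa cells, and held Lyve1 at 480.3 CPM at 17 dpa and 1029 CPM at 28 dpa. Cluster 2, led by Fcrls and C1q genes, had 415 to 535 cells in the unamputated, 17 and 28 dpa libraries and 218 at 12 dpa. Within cluster 2, Lyve1 stood at 18.1, 0.562, 264 and 478 CPM in the unamputated, 12, 17 and 28 dpa libraries, and F13a1 at 594, 196, 1759 and 2564 CPM. Mrc1 in cluster 2 stood at 1994, 1045, 2678 and 2412 CPM. For Lyve1 and F13a1 the order was that of the class, with 12 dpa lowest and 28 dpa highest. In cluster 2 all 10 genes were below the unamputated level at 12 dpa and above it at 17 and 28 dpa. At 12 dpa 5 were 2-fold lower (Lyve1, F13a1, Fcna, Cd163 and Timd4), where 4.71% of 9574 genes were. At 17 and at 28 dpa 7 were 2-fold higher, all but Mrc1, Gpr34 and Stab1, where 1.85% and 3.29% of genes were, and the median log2 ratio of the 10 genes was 1.42 and 1.59. At 28 dpa the ratio was 2.02 for Cd163 (1.76 to 2.38), 0.27 for Mrc1 (0.23 to 0.32) and 0.32 for Stab1 (0.21 to 0.43). Its cells came from both coarser clusters in unequal parts, with 341 from cluster 3 and 98 from cluster 5 in the unamputated library, and 48 and 363 at 28 dpa. In the macrophage-like finer cluster 14, 6 genes were above and 4 below the unamputated level at 12 dpa. Cbr2 was 2-fold higher and Cd163 2-fold lower there, where 2.4% and 10.7% of 9347 genes were. At 17 and 28 dpa 6 and 9 were 2-fold higher, where 4.19% and 6.39% of genes were. In finer cluster 26, thinned cells held a mean of 1.62, 1.51 and 1.78 of the 10 genes in the unamputated, 12 and 17 dpa libraries.

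**Figure D3:**
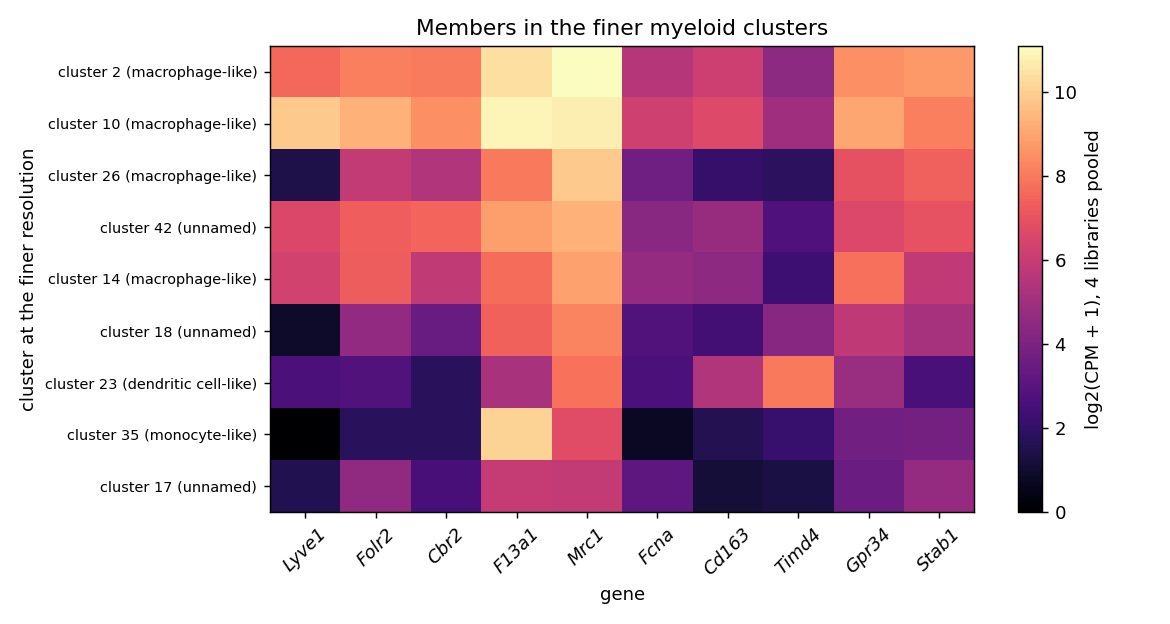
Level of the 10 genes in the finer myeloid clusters, all 4 libraries pooled, as log2(CPM + 1), with clusters ordered by Mrc1. In the pooled libraries clusters 2 and 10 hold the highest level of 9 genes, while Timd4 is highest in the dendritic-like cluster 23 and F13a1 also stands at 1082 CPM in the monocyte-like cluster 35. Single libraries can differ: unamputated F13a1 is highest in cluster 35, at 1257 CPM, and 28 dpa Cd163 in cluster 23, at 123 CPM.

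The monocyte-like cluster of the finer clustering, led by Ear2 and Plac8, set F13a1 apart from the rest. F13a1 stood at 1257 CPM there in the unamputated library and 863 CPM at 17 dpa. Lyve1 had 0 UMIs and Folr2 stood at 2.44 CPM in the pooled cells of that cluster. It held 231 unamputated, 36 12 dpa, 80 17 dpa and 39 28 dpa cells. At the coarser resolution these cells were not a cluster of their own, and nearly all of them were in cluster 3 and so in the macrophage-like class, of which they made up 18.1%, 5.70%, 7.95% and 2.64% in the unamputated, 12, 17 and 28 dpa libraries. They held 2473 of the 7188 F13a1 UMIs of the unamputated class, or 34.4%, but 8.39%, 3.35% and 0.365% at 12, 17 and 28 dpa. Without them F13a1 stood at 416, 160.2, 1443 and 2058 CPM in the class, with log2 ratios of -1.37, 1.79 and 2.30. Monocyte markers summed to 946, 530.4, 599 and 278 CPM in the unamputated, 12, 17 and 28 dpa macrophage-like cells, with none of the 12 at 0. Like F13a1 they were lower at 12 dpa than in the unamputated library, and unlike F13a1 they were lower at 28 dpa as well. Several other lists had sums above their unamputated value at both 17 and 28 dpa. The 8 fibroblast markers summed to 208, 572, 384 and 502 CPM, with none at 0. The 10 osteoclast markers summed to 451, 653, 487 and 746 CPM, with 1 or 2 at 0. The macrophage list also rose, as did, at sums of up to 43.2 CPM, the tenocyte, joint lining, pericyte and T or NK cell lists. Of the remaining lists only the Schwann and Langerhans cell ones did, each through 1 gene. The 7 Schwann cell markers summed to 259, 221, 571 and 835 CPM, with 1 at 0 at 17 dpa, but without Pmp22 to 90.3, 63.2, 77.4 and 70.1 CPM. The 6 Langerhans cell markers summed to 108, 114, 229 and 459 CPM, with none at 0, but without Ltc4s, which is also a companion gene of resident macrophages and leads cluster 5, to 75.1, 89.8, 58.6 and 40.3 CPM. The part of these lists in the values of the 10 genes was not tested.

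In the unnamed cluster 4, the group was low in the unamputated library and higher later. At 28 dpa 8 of the 10 were 2-fold higher there, where 3.39% of 9399 genes were, and at 17 dpa 6 were, where 1.01% of genes were. At 12 dpa 1, Cbr2, was 2-fold higher, where 0.692% of genes were. Lyve1 had 3 UMIs in unamputated cells of cluster 4, or 0.327 CPM (0.0675 to 0.957). It had 539 UMIs at 28 dpa, or 123 CPM (113 to 134), and the intervals do not overlap. Gpr34 stood at 20.4 and 215 CPM, and Folr2 at 19.8 and 159 CPM. Stab1 stood at 26.3 and 27.7 CPM, a log2 interval of -0.25 to 0.39. Of the cells of cluster 4, the finer clustering put 92 unamputated and 453 28 dpa cells into a cluster led by Fxyd2 and Cd36 and 375 and 85 into one led by Mmp12, so the makeup of cluster 4 also differed between libraries. Lyve1 in all cells of the cluster led by Fxyd2 and Cd36 stood at 0.946, 0.808, 6.12 and 172 CPM in the unamputated, 12, 17 and 28 dpa libraries.

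The number of the 10 genes found in the same cell was counted after thinning each cell to 2000 UMIs. Unamputated macrophage-like cells held a mean of 1.70 of the genes, 12 dpa cells 1.40, 17 dpa cells 3.34 and 28 dpa cells 4.27. At least 3 were found in 24.0% of unamputated cells (21.7 to 26.5, exact Clopper-Pearson 95% interval), 17.5% of 12 dpa cells (14.6 to 20.7), 61.3% of 17 dpa cells (58.2 to 64.4) and 83.5% of 28 dpa cells (81.5 to 85.4). Cells with none of the 10 made up 17.2%, 27.6%, 8.17% and 2.84%. Without thinning, the means were 3.15, 2.70, 4.92 and 6.12. In unamputated keratinocyte-like cells 0 of 1458 thinned cells held 3 or more, which allows a share of up to 0.253%. Within cluster 5 at least 3 genes were found in 71.2% of unamputated, 85.0% of 17 dpa and 89.2% of 28 dpa cells, and within cluster 3 in 19.1%, 27.9% and 26.0%.

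**Figure D4:**
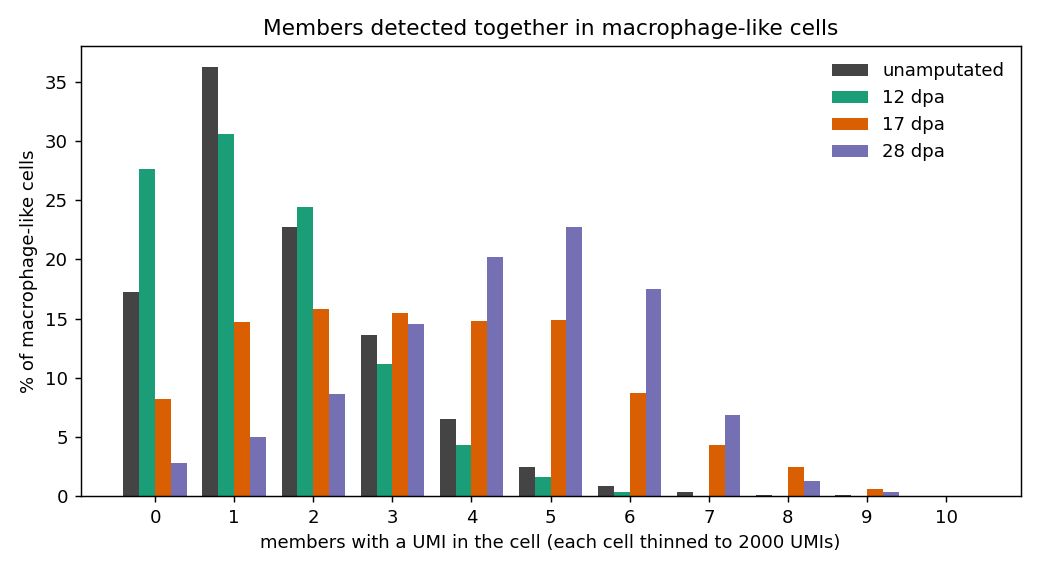
Share of macrophage-like cells (vertical axis, percent) by the number of the 10 genes with a UMI after thinning to 2000 UMIs per cell, with 1 bar per library. The unamputated and 12 dpa bars are highest at 1 gene, 17 dpa is spread from 1 to 5 genes, and 28 dpa is highest at 5 genes, with 22.7% of its cells.

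Detection of Lyve1 went with detection of others in the same cells, with gaps between the shares that were wider at 17 than at 28 dpa for the 5 genes given. At 17 dpa Cbr2 was found in 78.6% of thinned macrophage-like cells with a Lyve1 UMI and in 29.7% of those without. Folr2 was found in 72.2% and 32.8%, Stab1 in 70.6% and 41.3%, Cd163 in 31.7% and 4.52%, and Timd4 in 17.5% and 2.26%. At 28 dpa Cbr2 was found in 46.8% and 32.3%, Folr2 in 70.8% and 43.4%, Stab1 in 37.9% and 35.7%, Cd163 in 7.56% and 7.23%, and Timd4 in 8.00% and 3.55%. In unamputated cells F13a1 and Mrc1 were not found together more often than apart: Mrc1 was in 58.4% of cells with an F13a1 UMI and 62.0% of those without. Cells of clusters 3 and 5 are mixed in these shares, and no test was made over cells.

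Outside macrophages, Lyve1 was mainly a gene of lymphatic endothelial-like cells, where it stood at 837 CPM in the unamputated and 566 CPM in the 12 dpa library. The 35 and 40 such cells at 17 and 28 dpa were too few to be read. Macrophage-like cells held 8.15% of the Lyve1 UMIs of kept cells in the unamputated library, 2.81% at 12 dpa, 86.6% at 17 dpa and 90.4% at 28 dpa. Most of its UMIs thus lay in lymphatic endothelial-like cells in the first 2 libraries (78.9% and 81.9%) and in macrophage-like cells in the others. Of the Lyve1 UMIs in lymphatic endothelial-like cells, 93.2% lay in cells without a C1qa, C1qb or C1qc UMI, which made up 93.1% of those cells.

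Stab1 was found in lymphatic endothelial-like cells at 281 CPM in both the unamputated and the 12 dpa library, and in vascular endothelial-like cells at 56.0, 58.4, 68.0 and 44.6 CPM in the 4 libraries. Stab1 was also found in keratinocyte-like cells, at 18.7 CPM unamputated, 36.2 CPM at 12 dpa and 11.8 CPM at 28 dpa. Of its keratinocyte UMIs, 90.4% lay in cells without C1q UMIs, the share of such cells being 89.6%. Among keratinocyte clusters Stab1 ranged from 2.20 to 32.3 CPM, in contrast to Mrc1, which ranged from 1.34 to 5.18 CPM. Cbr2 stood at 11.5, 14.5, 14.2 and 20.5 CPM in keratinocyte-like cells, which held 27.5% of its UMIs in kept unamputated cells. Cbr2 ranged from 2.83 to 23.0 CPM among keratinocyte clusters. The highest clusters for Stab1 and for Cbr2 were different ones.

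**Figure D5:**
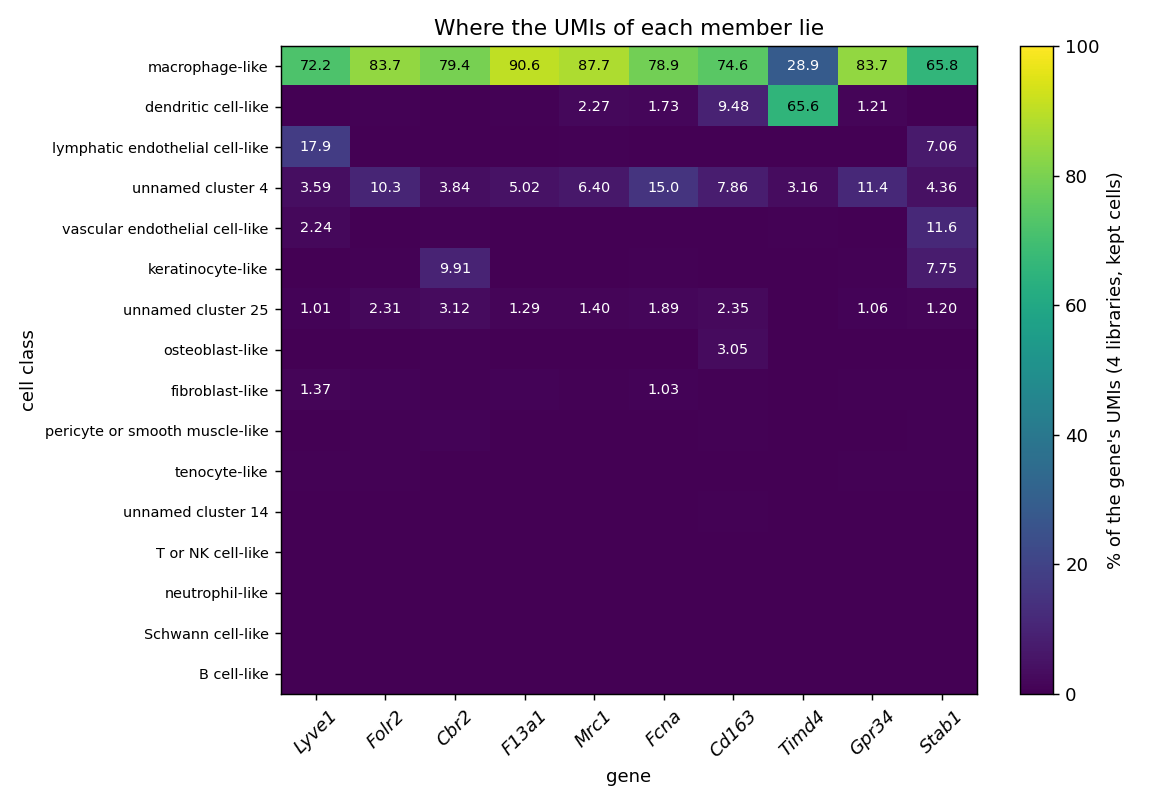
Share of each gene's UMIs (percent, kept cells of all 4 libraries pooled) by cell class, with values of at least 1 printed. Macrophage-like cells hold 65.8% to 90.6% of the UMIs of 9 genes and 28.9% of those of Timd4, whose largest share, 65.6%, lies in dendritic-like cells.

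Timd4 was foremost a gene of the dendritic-like cluster, in which 6 of the 12 dendritic markers were detected in at least 25% of cells. In its unamputated cells Flt3 was found in 71.3% and Cd209a in 55.0%, but Ccr7 in 21.5%, Clec9a in 8.30% and Xcr1 in 6.92%. Timd4 stood in this cluster at 254 CPM (238 to 272) in the unamputated, 352 CPM (318 to 388) in the 12 dpa, 171 CPM (147 to 197) in the 17 dpa and 248 CPM (213 to 287) in the 28 dpa library. Few cells held much of this: 204 of 859 unamputated UMIs, 72 of 187 at 17 dpa and 88 of 179 at 28 dpa lay in 5 cells. Leaving those cells of each library out gave 198, 262, 109 and 134 CPM, so the nearness of the unamputated and 28 dpa levels rests on those cells. The order differed from that in macrophage-like cells, with 12 dpa highest both ways. Of the 859 unamputated Timd4 UMIs in this cluster, 813 lay in cells without C1q UMIs, which were 248 of its 289 cells. In such cells lay 376 of 396 UMIs at 12 dpa (123 of 134 cells), 143 of 187 at 17 dpa (100 of 132 cells) and 157 of 179 at 28 dpa (68 of 100 cells). When macrophage, monocyte, dendritic and unnamed mononuclear clusters were pooled, the log2 ratio of Timd4 was -0.61 at 17 dpa and -0.32 at 28 dpa, the opposite sign to the class. Dendritic-like cells numbered 289 in the unamputated library and 100 at 28 dpa, or 2.78% and 0.988% of kept cells. Cd163 was also present there, at 24.9, 4.44 (5 UMIs), 72.1 and 108 CPM (57.6 CPM at 28 dpa without the 5 highest cells), low at 12 dpa as in macrophage-like cells. Mrc1 in the dendritic-like cluster stood at 288, 42.7, 231 and 245 CPM, again lowest at 12 dpa. The macrophage genes C1qa, at 152, 27.5, 194 and 347 CPM, and C1qb, at 81.7, 0.889, 73.0 and 149 CPM, ran with both in this cluster, and their part in the Cd163 and Mrc1 values was not tested. With the libraries pooled, 79.7% of the Cd163 UMIs of this cluster lay in cells without C1q UMIs, which made up 82.3% of its cells.

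Companion genes of resident macrophages that are not in the group were mostly higher at 17 and 28 dpa. Of 24 measured companions, 0 were 2-fold higher and 5 lower at 12 dpa, 16 higher and 0 lower at 17 dpa, and 13 higher and 2 lower at 28 dpa. Of all genes, 0.732% were higher and 2.69% lower at 12 dpa, 2.11% and 1.91% at 17 dpa, and 4.05% and 6.92% at 28 dpa. The companions' median log2 ratios were -0.29, 1.24 and 1.07, the first close to the -0.21 of all genes, and at 12 dpa some ran upward, such as Cd209d at 0.83 and Ninj1 at 0.50. Ccl24, an eosinophil-attracting chemokine, stood at 17.9, 8.56, 188 and 313 CPM in the 4 libraries, and the scavenger and fatty acid receptor Cd36 at 384, 247, 832 and 1371 CPM. The lectin receptor Clec4n went the other way, from 321 CPM unamputated to 73.1 CPM at 28 dpa. Ccl24, Pf4, Vsig4, Ltc4s and Cd36 are among the genes that lead cluster 5, whose share of the class differed between libraries.

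MHC class II and monocyte-derived genes stood opposite to the group at 28 dpa. Of 14 measured, 11 were 2-fold lower and 2 higher at 28 dpa, where 6.92% and 4.05% of all genes were, with a median log2 ratio of -2.71, while at 17 dpa 0 passed 2-fold in either direction and the median was -0.57. H2-Aa, an MHC II chain, stood at 1567, 1460.1, 827 and 167 CPM, and the chemokine receptor Ccr2 at 266 CPM unamputated and 35.3 CPM at 28 dpa. The 2 higher genes were S100a4 and S100a6, small calcium-binding proteins, the latter at 2855 CPM unamputated and 7347 CPM at 28 dpa. At 12 dpa 0 of the 14 were 2-fold higher and 2 (Ccr2 and Plbd1) lower, where 2.69% of all genes were lower. H2-Aa had a log2 ratio of -0.10 there and the list a median of 0.16.

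Pathways in which single genes of the group act are given by their counts at 28 dpa, where 4.05% of all genes were higher and 6.92% lower. With 5 to 16 measured genes each, no difference between pathways is read from these counts. For hyaluronan turnover, beside Lyve1, 1 of 5 measured genes was 2-fold higher and 1 lower at 28 dpa. These were the hyaluronidase Hyal2, at 4.13 and 19.7 CPM in unamputated and 28 dpa cells, and the hyaluronan-binding proteoglycan Vcan, at 150.0 and 54.2 CPM. For folate use, where Folr2 acts, 0 of 10 genes passed 2-fold in any comparison, with Shmt1 at 11.4 and 17.9 CPM. For haemoglobin and iron handling, beside Cd163, 1 of 16 was higher (the transferrin receptor Tfrc, 59.3 and 138 CPM) and 3 were lower, among them haptoglobin, Hp, at 50.6 and 1.29 CPM. For uptake of dying cells, beside Timd4, 3 of 16 were higher and 5 lower, with Cd36 the highest ratio and Havcr2 (TIM3) the lowest, at 152 and 43.8 CPM. For fibrin and clotting, beside F13a1, 0 of 12 were higher and 4 lower, among them F10 at 55.8 and 5.05 CPM, while Tfpi stood at 22.0 and 32.2 CPM.

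Of the remaining lists at 28 dpa, scavenger receptors had 1 higher and 3 lower of 10, with Olr1 lowest at 26.7 and 5.60 CPM. Genes of the response to IL-4 and IL-13 had 2 higher and 1 lower of 10, the lower being the chitinase-like Chil3 at 62.1 and 8.82 CPM. The macrophage growth factor axis had 0 higher and 2 lower of 13. Csf2rb stood at 125 and 41.4 CPM, and the transcription factor Maf at 562, 492, 983 and 995 CPM, with log2 ratios of -0.19, 0.81 and 0.82. Of 6 receptors related to Gpr34, P2ry12 was higher at 113 against 49.5 CPM, and Lpar6 lower at 8.45 against 27.0 CPM.

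Likeness of pattern was measured as the Pearson correlation of log2(CPM + 1) over 56 profiles, each 1 class in 1 library, from 16 classes, and is given as a description because profiles share libraries and depth. The closest of 8807 genes were the complement genes C1qc and C1qa for F13a1 (0.934 and 0.932), Gpr34 (0.938 and 0.942) and Mrc1 (0.905 and 0.888). For Folr2 they were C1qc (0.898), Pf4 and Lyz1, for Fcna Lyz1 (0.922), Trem2 and C3ar1, and for Cbr2 Ccl24 (0.829), Pf4 and C1qc. For Cd163 they were Retnla (0.820), Clec10a and Slamf9. Timd4 stood apart, closest to Mgl2 (0.943), Cd209d (0.930) and Cd209a (0.909), which are among the genes that lead the dendritic-like cluster. Mgl2 and Cd209d are also listed as companion genes of resident macrophages. Lyve1 and Stab1 shared Rab11a (0.797 and 0.790) and Slco2b1 (0.785 and 0.776) among their closest genes. Between the 10 genes the correlation ran from 0.274 for Timd4 and Stab1 to 0.910 for F13a1 and Gpr34.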

How the data were processed

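The deposited matrices held raw UMI counts of each gene in each cell barcode. Per the file headers, Cell Ranger 7.1.0 wrote them. The build was mm10, per the submitters' processing notes. The annotation, the intron setting and the cell calling are not given in the sources used here. The chemistry was 10x Chromium 3′ v3, per the labels' protocols.

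A cell was kept if it had 500 or more genes, 1000 or more UMIs and no more than 10% of UMIs from mitochondrial genes. Doublets with the highest Scrublet scores were removed at 0.8% per 1000 barcodes (7.05% to 12.8% of barcodes). The automatic threshold would have marked 1.70% to 4.05%. The 4 libraries together were scaled to 10000 UMIs per cell and clustered by the Leiden method in scanpy 1.11.5 (2000 variable genes, 30 components, 15 neighbours, resolution 1), without the 10 genes, the other genes of the lists (unless they are markers), Y-linked and mitochondrial genes, Xist and Tsix. Clusters were named from marker lists of 22 classes, with at least 3 markers detected in 25% of cells, and stayed unnamed where markers of another class outnumbered their own among the 10 leading genes. UMIs were summed per class and library of at least 50 cells. Log2 ratios have a pseudocount of 1 CPM, while folds and intervals have none. A cell counted as male with at least 2 UMIs of Ddx3y, Eif2s3y, Kdm5d and Uty and none of Xist, and as female in the opposite case. The arithmetic of the ratios was checked on simulated Poisson counts, with known changes in genes of at least 50 CPM. The simulation held no spread between cells or animals, so it says nothing about either.

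The 10 genes, the gene lists and the marker lists were chosen with earlier results of these data known. Of each list, the highest and the lowest ratio at 28 dpa among genes of at least 5 CPM are named, and for each of the 10 genes the 3 most alike among genes of at least 50 CPM in a profile. One gene that this rule names is not reported here. Ccr2, S100a4, Pf4, Vsig4, Ltc4s, Cd209d, Ninj1 and Plbd1, the clusters and pairs singled out, and the levels without the 5 highest cells, were chosen after their values were seen. Of the alternatives tried, 14 were planned and 6 were added after seeing the data. Promoter sequences are from RefSeq (GRCm38.p6).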

Additional observations from a re-analysis of the deposited data

Results flagged for a closer look

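Lyve1, F13a1, Cd163 and Timd4 passed 2-fold in opposite directions at 12 and at 28 dpa in macrophage-like cells, each against the same unamputated library. The log2 ratio of Lyve1 was -1.22 at 12 dpa and 5.79 at 28 dpa. The ratio of F13a1 was -1.68 and 1.91, that of Cd163 -2.17 and 2.41, and that of Timd4 -2.14 and 1.07. Of the 179 unamputated Timd4 UMIs, 105 lay in 1 cell. Without the 5 highest cells of each library, Timd4 stood at 3.86 CPM unamputated, 1.34 CPM at 12 dpa and 27.8 CPM at 28 dpa. All 12 dpa UMIs of Lyve1 and of Cd163 lay in 5 cells. Without the 5 highest cells Lyve1 stood at 4.61 CPM unamputated and 782 CPM at 28 dpa, and Cd163 at 6.73 and 69.2 CPM. With 1 library per time the difference was not tested. The 12 dpa library was also the one with female cells only, a value whose part in these ratios was not tested.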

How the results depend on the processing

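No paired analysis was possible because each group held 1 library. Of 20 alternatives, the count of genes 2-fold higher ranged from 1 to 9 at 17 dpa and at 28 dpa, and the count 2-fold lower at 12 dpa from 1 to 4. The class itself changed with the filter: at 28 dpa it held 1442 cells, 382 with the stricter filter and 418 with no doublets removed, because other clusters were named macrophage-like, and 1800 and 2142 with clusters named by best class. With cluster 3 only, 2 were higher at 17 dpa, 2 at 28 dpa, 2 lower at 12 dpa and 1 lower at 17 dpa. With cluster 5 only, added after seeing the data, 1 was higher at each of 17 and 28 dpa. When the 5 highest cells of each library were left out of cluster 5, F13a1, Fcna, Cd163 and Timd4 also passed 2-fold at both times, and Cbr2 at 17 dpa. With a pseudocount of 10 CPM, 1 was lower at 12 dpa. Cluster 5 only and cells called male gave no 12 dpa value, having under 50 cells.

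Signs turned as follows. With cluster 3 only, the log2 ratios were 0.45 for Lyve1, 0.037 for Folr2 and 0.033 for Stab1 at 12 dpa, -0.20 for F13a1 and -1.73 for Timd4 at 17 dpa, and -0.085 for Mrc1 and -0.60 for Timd4 at 28 dpa. With cluster 5 only they were -0.074 for Mrc1 at 17 dpa, and -0.64 for Mrc1, -0.11 for Cd163 and -0.53 for Stab1 at 28 dpa. The Timd4 values of cluster 3 rest on 1 unamputated cell, without which they were -0.16 at 17 dpa and 0.97 at 28 dpa. Within cluster 5, Cd163 at 28 dpa was 1.41 without the 5 highest cells of each library. Timd4 was -0.61 and -0.32 at 17 and 28 dpa with mononuclear clusters pooled, and -0.80 and -0.55 with a stricter filter and clusters named by best class. Both sets of cells included the dendritic-like cluster, because with the stricter filter its best class was macrophage. Stab1 was -0.022 at 28 dpa at resolution 2 and 0.054 at 12 dpa with median ratio scaling. Folr2 was 0.013 at 12 dpa with thinned cells. Cbr2 and Fcna at 12 dpa, within counting error of 0, took both signs, from -0.27 to 0.48 and from -0.41 to 0.76. Apart from those cells, the cause was not tested. Lyve1, Folr2, Cbr2, Fcna and Gpr34 stayed above 0 at 17 and 28 dpa under all alternatives that gave a value. Cluster 3 without the 5 highest cells of each library was not among those alternatives. It gave -0.049 and -0.73 for Folr2 and 0.58 and -1.36 for Fcna at 17 and 28 dpa. It left no Lyve1 UMI, while Cbr2 and Gpr34 stayed above 0. Without the monocyte-like cells of the finer clustering, 6 genes were higher at 17 dpa and 7 at 28 dpa, and without the 5 highest cells of each gene 8 and 8, with 4 lower at 12 dpa in both. Cd163 and Timd4 at 12 dpa rest on 13 and 12 UMIs, which leaves wide counting intervals.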
